A study of Raphanus sativus with 12 samples.

Results

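The genes described here are the photoreceptors and light signalling genes of radish (Raphanus sativus) leaf blade: 89 of the 30161 genes in the deposited expression table. They were taken by their descriptions, as phytochromes and proteins named after them, cryptochromes, phototropins, ultraviolet-B receptors, the ubiquitin ligase COP1 and its partner SUPPRESSOR OF PHYA (SPA), COP9 signalosome subunits, the transcription factors HY5 and PIF, and the FAR1-RELATED and FAR-RED genes. No measured value was used to pick them, though earlier results of these data were known when the choice was made. The study compared blades of diploid XHT plants at 30 days after sowing, in vegetative growth, with blades at 120 days, in reproductive growth, to follow N6-methyladenosine (m6A) on RNA during bolting and flowering. All plants were untreated, with 16 hours of light at 25 °C and nights at 23 °C in darkness, and each library held the mixed leaves of 3 plants. There were 12 libraries: for each age 3 input libraries (RNA-seq with no pull-down) and 3 libraries of RNA pulled down with an antibody to m6A. XHT is the only radish material sampled, so age and growth stage cannot be told apart.

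Plants read light through pigment-bearing proteins. Phytochromes sense red and far-red light, cryptochromes and phototropins sense blue light, and UVR8 senses ultraviolet-B. In Arabidopsis, phytochromes, cryptochromes and UVR8 act in large part by restraining COP1, which with SPA proteins marks growth regulators such as HY5 for destruction, while active phytochromes also remove the PIF transcription factors. Light signalling sets leaf expansion, shade responses and the timing of flowering.

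Levels are in FPKM (fragments scaled to the length of the transcript and to the mapped fragments of the library), as the authors deposited them for the 6 input libraries. Differences were tested with limma on log2(FPKM + 1) over the 21435 genes that reached an FPKM of 1 in at least 3 input libraries, and a gene was called higher or lower at a Benjamini-Hochberg adjusted p under 0.05. Folds are log2 of 120 over 30 days on that scale, with n = 3 libraries per age. Counts at an unadjusted p under 0.05 are also given for some sets. The share of all tested genes at that cutoff is not given, so those counts have no background beside them. On this scale the median of all tested genes was itself at -0.45, and it was -0.01 after each library was centred on its median, so calls after centring are given beside the calls as deposited. The 30-day replicate 3 stood apart: its log2 values correlated across genes with the other 30-day libraries at 0.895 and 0.835, against 0.944 between those 2 libraries and 0.971 to 0.985 among the 120-day libraries. Results that rest on it are given with and without it. The summed FPKM of 30 leaf mesophyll markers (Rubisco small subunit and chlorophyll-binding protein genes) was 12391.07 to 16045.43 at 30 days and 71104.76 to 94367.33 at 120 days, and the part of this shift in the results below was not tested. Floral organ markers, 8 matched genes, summed to at most 3.77 FPKM in any library and seed markers to at most 1.18. In these bulk samples, fewer cells of a type and less RNA per cell cannot be told apart.

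Of the 89 genes, 77 were tested and 12 lay under the filter. By limma, 39 of the 77 were lower at 120 days, against 37.6% of all tested genes, and 1 was higher, against 8.4% of all. Their median log2 fold was -0.61, against -0.45 for all tested genes. After median centring, 10 were lower and 4 higher, against 10.2% and 13.8% of all tested genes. The count of lower genes thus lay somewhat above the background as deposited and near it after centring. Without the 30-day replicate 3, 48 were lower and 2 higher, against 42.8% and 10.2% of all. With both changes together, 15 were lower and 4 higher, against 14.3% and 17.9% of all. The FPKM of the ages did not overlap in 52 genes: 49 had all 120-day libraries below all 30-day libraries, against 49.1% of all tested genes, and 3 had them above, against 11.6%. In sum, the 89 genes held 0.145% to 0.152% of the FPKM of a 120-day library and 0.206% to 0.241% of a 30-day library.

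The roles differed in the size of their folds. The steepest falls were those of HY5 genes, of several genes described as UVR8 and, with the 30-day replicate 3 set aside, of 1 phytochrome A gene and the PIF4-like gene. As deposited, the signalosome subunits and the FAR1 family had many smaller falls, while no cryptochrome or phototropin was called in either direction. After centring, 0 of the 19 tested signalosome genes and 3 of the 12 tested FAR1 family genes were called lower. On that scale 1 cryptochrome and 1 phototropin were called higher.

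**Figure D1:**
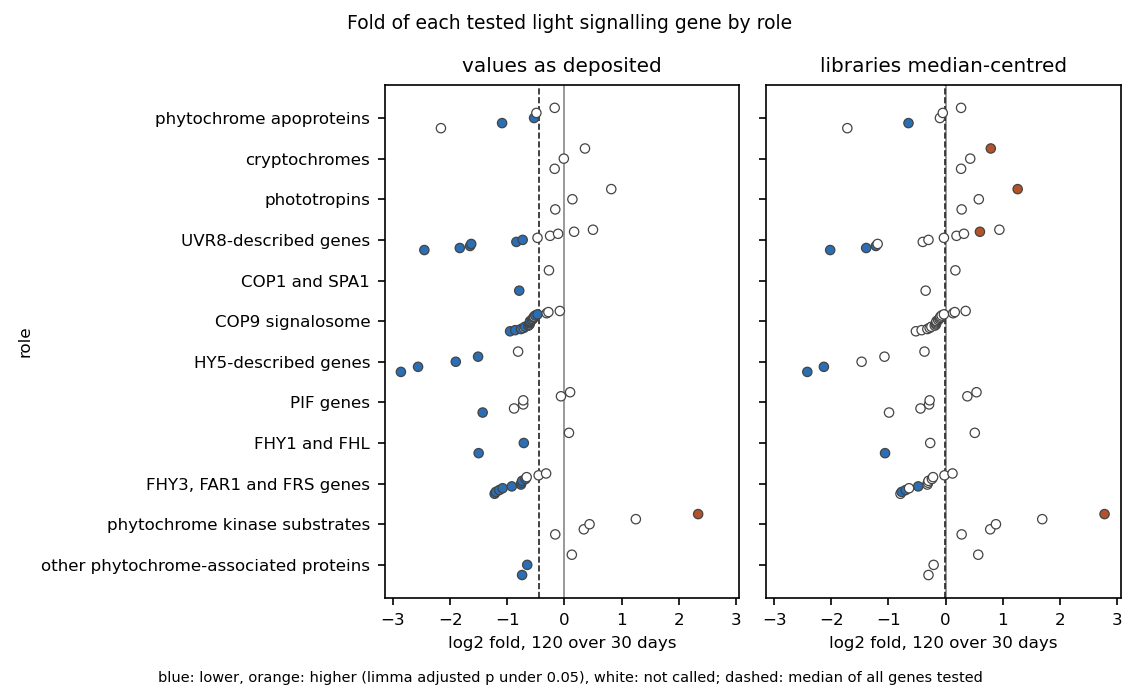
Log2 fold of 120 over 30 days for each of the 77 tested genes, 1 point per gene, by role, with the values as deposited at left and after median centring at right. Blue points were called lower and orange points higher by limma, white points were not called, and the dashed line is the median of all tested genes. The HY5 points reach furthest left in both panels, and no COP9 signalosome point keeps its call after centring.

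The phytochromes are the red and far-red receptors, and 6 genes were described as their apoproteins, of which 5 were tested. Phytochrome A, the receptor specialised for far-red light and for seedlings leaving darkness, had a pair of copies with unlike levels. The copy Rsa10037574 (R06, bases 24750328 to 24754360, minus strand) had 78.7, 136.81 and 14.89 FPKM in the 30-day replicates 1 to 3, and 8.94, 14.43 and 11.87 at 120 days. The ages did not overlap, but the 30-day replicate 3 lay just above the highest 120-day library. Its log2 fold was -2.16 ± 0.76 (SE), with a limma adjusted p of 0.0572. After centring the fold was -1.72 and not called (adjusted p 0.153, limma). Without the 30-day replicate 3 it was -3.06, with an adjusted p of 0.00161. With both changes together it was -2.63 (adjusted p 0.00394, limma). The authors' deposited table called this gene lower, with a log2 fold of -2.71. The copy Rsa10028588 on R05 had 6.65, 4.48 and 6.38 FPKM at 30 days and 3.51, 6.69 and 5.28 at 120 days. Its ages overlapped, with a log2 fold of -0.17 (adjusted p 0.593, limma).

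Phytochrome B, the main red-light receptor of green plants, was the phytochrome with the clearest fall. Rsa10032063 (R05, bases 33200417 to 33204812, minus strand) had 10.31, 9.8 and 9.49 FPKM at 30 days and 3.77, 4.53 and 4.02 at 120 days. The libraries of each age lay close together and far from those of the other age. The log2 fold was -1.09 ± 0.13 (SE), with a limma adjusted p of 0.00327, and it was -0.65 after centring, with an adjusted p of 0.0186. A further phytochrome B copy, Rsa10042572, was under the filter, at 1.38, 0.83 and 0.45 FPKM at 30 days and at most 0.17 at 120 days. Phytochrome C (Rsa10016875) fell by 0.53 on the log2 scale, with a limma adjusted p of 0.0294, and was not called after centring (adjusted p 0.64). Phytochrome E (Rsa10003205) was at -0.49, with an adjusted p of 0.0599 in limma.

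Phytochrome A Rsa10037574 made up most of the phytochrome FPKM in 2 of the 3 young libraries. It held 75.2% and 86.3% of the summed phytochrome FPKM in the 30-day replicates 1 and 2, 38.0% in the 30-day replicate 3, and 42.5% to 47.8% in the 120-day libraries. The phytochrome sum was 104.66, 158.57 and 39.16 FPKM at 30 days and 21.04 to 30.18 at 120 days. The ages therefore did not overlap in the sum, while the 30-day replicate 3 lay below the whole 120-day range in the share held by this copy.

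The cryptochromes, blue-light receptors that in Arabidopsis act on hypocotyl growth and on flowering time, stayed among the more abundant genes described here. Cryptochrome-1 (Rsa10017354) had 69.65, 89.91 and 34.2 FPKM at 30 days and 51.89, 51.94 and 55.58 at 120 days. The 30-day libraries lay on both sides of the 120-day ones, and the log2 fold of -0.17 had a limma adjusted p of 0.699. Without the 30-day replicate 3, the fold was -0.57 with an adjusted p of 0.0225, whereas median centring of all libraries turned it to 0.27. With both changes together it was -0.13 and not called (adjusted p 0.624, limma). Cryptochrome-1-like (Rsa10029400) went the other way, with 45.66, 44.69 and 39.15 FPKM at 30 days and 53.23, 54.65 and 58.6 at 120 days. Its ages did not overlap. Its fold of 0.36 had an adjusted p of 0.0668 in limma, and after centring it was called higher, with a fold of 0.79 and an adjusted p of 0.0131. Cryptochrome-2 (Rsa10041457) lay at 31.31 to 39.13 FPKM at 30 days and 35.08 to 36.99 at 120 days, a log2 fold of -0.01 that became 0.43 after centring. The count of called cryptochromes was thus 0 of 3 in limma as deposited, where 37.6% of all tested genes were lower and 8.4% higher. An unadjusted p under 0.05 was reached by 1 of the 3, with no share of all genes at that cutoff.

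The phototropins direct phototropism, chloroplast movement and stomatal opening in blue light. Phototropin-1 (Rsa10028449) had 71.86, 91.69 and 37.15 FPKM at 30 days and 104.3, 115.7 and 115.27 at 120 days. All 120-day libraries lay above all 30-day libraries. The log2 fold was 0.82 ± 0.33 (SE), with a limma adjusted p of 0.0805. It passed the test after centring (fold 1.26, adjusted p 0.0427) and without the 30-day replicate 3 (fold 0.45, adjusted p 0.0473). With quantile normalization the fold was 1.05 and not called (adjusted p 0.069, limma). Of the phototropin-2-like genes, Rsa10006077 was among the most abundant of all 89, at 103.91 to 140.59 FPKM at 30 days and 119.8 to 142.1 at 120 days. Rsa10032760 had 32.65 to 59.07 FPKM at 30 days and 39.41 to 41 at 120 days. Both overlapped between ages, with log2 folds of 0.14 and -0.16, and the second turned to 0.28 after centring. As deposited, 0 of the 3 phototropins were called by limma, where 37.6% of all tested genes were lower and 8.4% higher. Of the 3, 1 had an unadjusted p under 0.05, with no share of all genes at that cutoff.

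**Figure D2:**
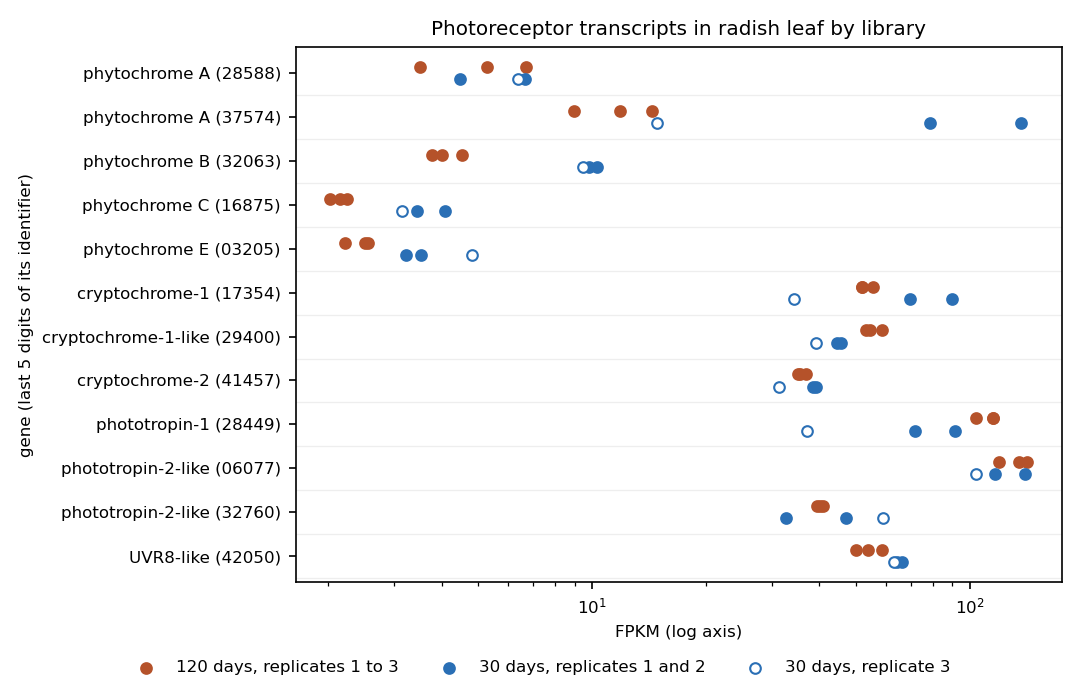
FPKM (log axis) of each tested gene annotated with photoreceptor activity, 1 point per input library, with 120 days in orange, the 30-day replicates 1 and 2 in filled blue and the 30-day replicate 3 as an open circle. Phytochrome A Rsa10037574 has 78.7, 136.81 and 14.89 FPKM in the 30-day libraries, and phytochrome B Rsa10032063 is the receptor whose ages lie tightly apart.

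Of the 13 genes described as UVR8, the ultraviolet-B receptor, the gene ontology terms in the deposited table gave photoreceptor activity to 1 and Ran GTPase binding to 11. UVR8 shares its fold of repeated blades with RCC1, a regulator of Ran, and the description alone therefore does not show that each gene encodes a light receptor. The annotated receptor Rsa10042050 (R05, bases 6133733 to 6136574, minus strand) was the most abundant of the 13, at 64.16, 66.06 and 63.02 FPKM at 30 days and 58.7, 50.04 and 53.84 at 120 days. Its ages did not overlap, but the log2 fold of -0.25 had a limma adjusted p of 0.16 and turned to 0.19 after centring.

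The falls were among the other UVR8-described genes. Rsa10007560 (R09, bases 4710673 to 4712753) had 16.65, 13.17 and 19.07 FPKM at 30 days and 2.25, 1.96 and 2.17 at 120 days. The ages lay far apart and the 120-day libraries were nearly level. Its log2 fold of -2.45 ± 0.17 (SE) had the smallest adjusted p of the 77 genes, 0.00141 in limma, and was -2.02 after centring. Rsa10024937 had 10.33, 8.21 and 20.64 FPKM at 30 days and 2.56 to 2.91 at 120 days, a fold of -1.83 with an adjusted p of 0.00719 in limma. Rsa10020778 fell by 1.65 on the log2 scale (adjusted p 0.00243, limma). These 3 kept their call after centring. Rsa10032171 had 16.51, 10.47 and 30.35 FPKM at 30 days and 4.79 to 5.19 at 120 days, a fold of -1.63 that was called as deposited (adjusted p 0.0132, limma) and had an adjusted p of 0.0504 after centring. The 30-day replicate 3 was the highest library in both Rsa10024937 and Rsa10032171.

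Altogether, 6 of the 11 tested UVR8-described genes were lower and 0 were higher in limma, against 37.6% and 8.4% of all tested genes. At an unadjusted p under 0.05, 7 were lower and 0 higher, with no share of all genes at that cutoff. The remaining called genes were Rsa10034016, at -0.84, and Rsa10015456, at -0.73, neither of them called after centring. Of those not called, Rsa10018398 was at 0.17, and after centring it was called higher, at 0.60 with an adjusted p of 0.0393 in limma. Rsa10025063 was level at 30.31 to 38.43 FPKM at 120 days and 37.38 to 39.77 at 30 days, with a fold of -0.11 as deposited and 0.32 after centring. Rsa10028203 was at -0.47, while Rsa10014699 was at 0.50, which turned to -0.11 without the 30-day replicate 3. The other 2 genes were under the filter, and none of their values passed 4.36 FPKM.

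COP1 is the ligase that holds light responses back in the dark, and SPA proteins are its partners. COP1 (Rsa10038561) was a low transcript, at 3.35, 2.63 and 4.09 FPKM at 30 days and 2.55 to 2.65 at 120 days. Its ages overlapped, and the log2 fold of -0.27 (adjusted p 0.237, limma) turned to 0.17 after centring. The SPA1-like gene Rsa10039480 (R01, bases 892458 to 896750) had 15.31, 11.88 and 13.59 FPKM at 30 days and 7.64, 7.1 and 7.51 at 120 days. Its ages did not overlap. The fold of -0.79 ± 0.14 (SE) was called lower by limma (adjusted p 0.00789) and had an adjusted p of 0.0891 after centring.

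The COP9 signalosome is a complex of 8 subunits that removes the NEDD8 tag from cullin ubiquitin ligases and was found through mutants that look light-grown in darkness. Here 21 genes were described as its subunits, numbers 1 to 8, and 19 were tested. By limma 12 of the 19 were lower and 0 higher, against 37.6% and 8.4% of all tested genes. At an unadjusted p under 0.05, 16 were lower and 0 higher, with no share of all genes at that cutoff to set beside them. Every one of the 19 had a log2 fold below 0, from -0.95 to -0.08, with a median of -0.60, and in 18 all 120-day libraries lay below all 30-day ones, against 49.1% of all tested genes. After centring, 0 of the 19 were called in either direction, with 3 lower and 0 higher at an unadjusted p under 0.05, the median was -0.16 and 3 of the 19 folds were above 0.

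The subunit 8-like gene Rsa10030961 had 13.48, 14.69 and 18.8 FPKM at 30 days and 6.78, 8.35 and 7.54 at 120 days. The ages did not overlap, and its fold of -0.95 (adjusted p 0.00756, limma) was the furthest of the 19. The subunit 3-like gene Rsa10025188 had 20.51, 21.76 and 21.37 FPKM at 30 days and 11.3, 10.57 and 11.83 at 120 days, a fold of -0.86 (adjusted p 0.00429, limma). It had the least spread between libraries of the pair. Subunit 5, which carries the catalytic activity of the complex, was described for Rsa10029761, which fell by 0.61, and Rsa10040147, which fell by 0.57. Also among the 6 subunit genes with the smallest p were a subunit 4 gene, Rsa10031139, at -0.76, 2 further subunit 3-like genes, Rsa10000943 at -0.69 and Rsa10036128 at -0.63, and the subunit 1-like gene Rsa10024005 at -0.60, all lower by limma. The other 4 of the 12 lower subunit genes beside these and subunit 5 were a subunit 7-like gene (Rsa10029256, -0.60), subunit 1 (Rsa10029639, -0.54), subunit 2-like (Rsa10002655, -0.51) and subunit 3-like (Rsa10002411, -0.47). Subunit 2 (Rsa10028697, -0.28) and a subunit 4 gene (Rsa10021511, -0.31) were not called, and their folds turned to 0.16 and 0.13 after centring.

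HY5, a bZIP transcription factor that promotes greening and light-grown development, had the largest falls as deposited and after centring, while without the 30-day replicate 3 phytochrome A Rsa10037574 was further down, at -3.06. The gene Rsa10013670 (R07, bases 22042380 to 22043588, minus strand) had 31.92, 41.65 and 81.53 FPKM at 30 days and 7.37, 6.09 and 4.09 at 120 days. The lowest 30-day library lay well above the highest 120-day library. Its log2 fold was -2.86 ± 0.37 (SE), with a limma adjusted p of 0.00367. After centring the fold was -2.42, and without the 30-day replicate 3, which was its highest library, it was -2.48. The HY5-like gene Rsa10025049 (R02, bases 12452174 to 12453176) had 25.41, 38.69 and 35.84 FPKM at 30 days and 4.22, 4.57 and 5.41 at 120 days. Its ages were as far apart, but with the 30-day replicate 3 between the others, and the fold was -2.56 ± 0.20 (SE), with a limma adjusted p of 0.00153 and a fold of -2.13 after centring.

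The other HY5-like genes were lower transcripts in which the 30-day replicate 3 stood out. Rsa10035018 had 5.49, 4.89 and 22.48 FPKM at 30 days and 1.31 to 2.06 at 120 days, a fold of -1.90 (adjusted p 0.0285, limma). Rsa10042547 had 10.51, 10.98 and 29.72 at 30 days and 3.7 to 5.37 at 120 days, a fold of -1.51 (adjusted p 0.0239, limma). Neither was called after centring, with adjusted p of 0.0909 and 0.1, and without the 30-day replicate 3 both were called, at -1.26 and -1.05. Rsa10023041 was at 1.07, 1.11 and 5.28 FPKM at 30 days against 0.28 to 1.41 at 120 days, and it was not called (adjusted p 0.21, limma). In all, 4 of the 5 HY5 genes were lower by limma, against 37.6% of all tested genes. The sum over the 5 was 74.4, 97.32 and 174.85 FPKM at 30 days and 15.95 to 19.68 at 120 days. Of the 30-day libraries, replicate 3 thus had the highest HY5 sum.

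The PIF genes are bHLH transcription factors that bind active phytochrome and promote growth in shade and darkness. Among the 10 matched genes, 6 were tested and 1 was lower by limma as deposited. Among the 30-day libraries, replicate 3 had the lowest value in each tested PIF gene, while it was the highest library in 4 of the 5 HY5 genes. It was the lowest of all 6 input libraries in 3 of the 6 tested PIF genes. In PIL1-like Rsa10009878, a relative of the PIF genes outside the rule, it was the highest of all 6. The PIF4-like gene Rsa10026033 (R03, bases 13471190 to 13473690) had 33.93, 73.65 and 0.38 FPKM at 30 days and 5.03, 12.17 and 9.21 at 120 days. The 30-day replicates 1 and 2 lay above and replicate 3 below all 120-day libraries. The fold was -0.72 ± 1.42 (SE), with an adjusted p of 0.694 in limma, and without the 30-day replicate 3 it was -2.45, with an adjusted p of 0.00638. PIF5 (Rsa10024147) had 46.23, 66.63 and 2.69 FPKM at 30 days and 18.52, 27.55 and 25.21 at 120 days. It had the same order of libraries, a fold of 0.10 (adjusted p 0.942, limma) and, without the 30-day replicate 3, a fold of -1.21 with an adjusted p of 0.00816. With centring as well, PIF5 was at -0.77 and not called (adjusted p 0.0772, limma).

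PIF3-like Rsa10037570 had 16.72, 10.1 and 0.93 FPKM at 30 days and 3.05, 3.78 and 3.37 at 120 days, and its fold moved from -0.72 (adjusted p 0.468, limma) to -1.68 without the 30-day replicate 3 (adjusted p 0.00328). PIF6 (Rsa10027810) was lower in both, at 4.52, 5.31 and 1.54 FPKM at 30 days and 0.38, 0.99 and 0.65 at 120 days, with a fold of -1.43 (adjusted p 0.0227, limma). Its ages did not overlap, and it was not called after centring (adjusted p 0.105). PIF5-like Rsa10001721 was at -0.88 (adjusted p 0.114, limma) and at -1.24 without the 30-day replicate 3 (adjusted p 0.0208). With centring as well, it was at -0.81 and not called (adjusted p 0.125, limma). PIF1-like Rsa10031218 was level, at 4.31 to 7.57 FPKM at 30 days and 4.01 to 7.26 at 120 days, with a fold of -0.06 that turned to 0.38 after centring. Without the 30-day replicate 3, then, 5 of the 6 tested PIF genes were lower by limma, against 42.8% of all tested genes, and with centring as well 3 were, against 14.3%. The PIF sum was 118.55, 181.42 and 15.84 FPKM at 30 days and 34.64 to 58.72 at 120 days.

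The PIF3-like gene that passed the filter and the more abundant phytochrome A copy, Rsa10037570 and Rsa10037574, lie 18032 bases apart on R06 with 2 listed genes between them. The other phytochrome A copy, Rsa10028588, lies 39610 bases from a PIF3-like gene on R05, Rsa10028592, also with 2 listed genes between. Both R06 genes had their lowest 30-day value in replicate 3, while on R05 the PIF3-like gene was at most 0.17 FPKM in any library. This arrangement was looked for after the values were seen.

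The phytochrome kinase substrates (PKS) are proteins of the cell membrane that work with phototropins in phototropism and leaf positioning. Of the 6 matched genes 5 were tested, and the 30-day replicate 3 was the lowest of the 6 input libraries in all 5. That library was the lowest in 17 of all 77 tested genes, against 18.4% of all tested genes, and the highest in 33, against 34.6%. The PKS1-like gene Rsa10002236 (R04, bases 14151598 to 14152854) had 3.79, 5.17 and 0.11 FPKM at 30 days and 13.55, 14.63 and 17.84 at 120 days. The ages did not overlap. Its log2 fold of 2.34 ± 0.63 (SE), with an adjusted p of 0.0248 in limma, made it the single gene called higher as deposited. It was 1.58 without the 30-day replicate 3, with an adjusted p of 0.00238, and the call was lost when any 1 of the 120-day libraries was left out, with adjusted p of up to 0.0835, and with a pseudocount of 0.1 (adjusted p 0.0656).

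A further PKS1-like gene, Rsa10020698, had 8.82, 16.27 and 1.46 FPKM at 30 days and 14.9, 17.63 and 18.01 at 120 days, a fold of 1.25 (adjusted p 0.165, limma) whose ages overlapped. PKS2, PKS3 and PKS4 were at 0.34, -0.16 and 0.44, none of them called. Without the 30-day replicate 3, PKS2 and PKS4 turned to -0.2 and -0.03 and were not called. PKS3 (Rsa10040845) was lower without that library, at -0.84 with an adjusted p of 0.0277 in limma. PKS3 turned to 0.28 after centring. With both changes together PKS3 was at -0.41 and not called (adjusted p 0.294, limma). A low PKS1-like copy, Rsa10007618, was under the filter, with at most 0.76 FPKM at 30 days and 0.04 at 120 days.

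**Figure D3:**
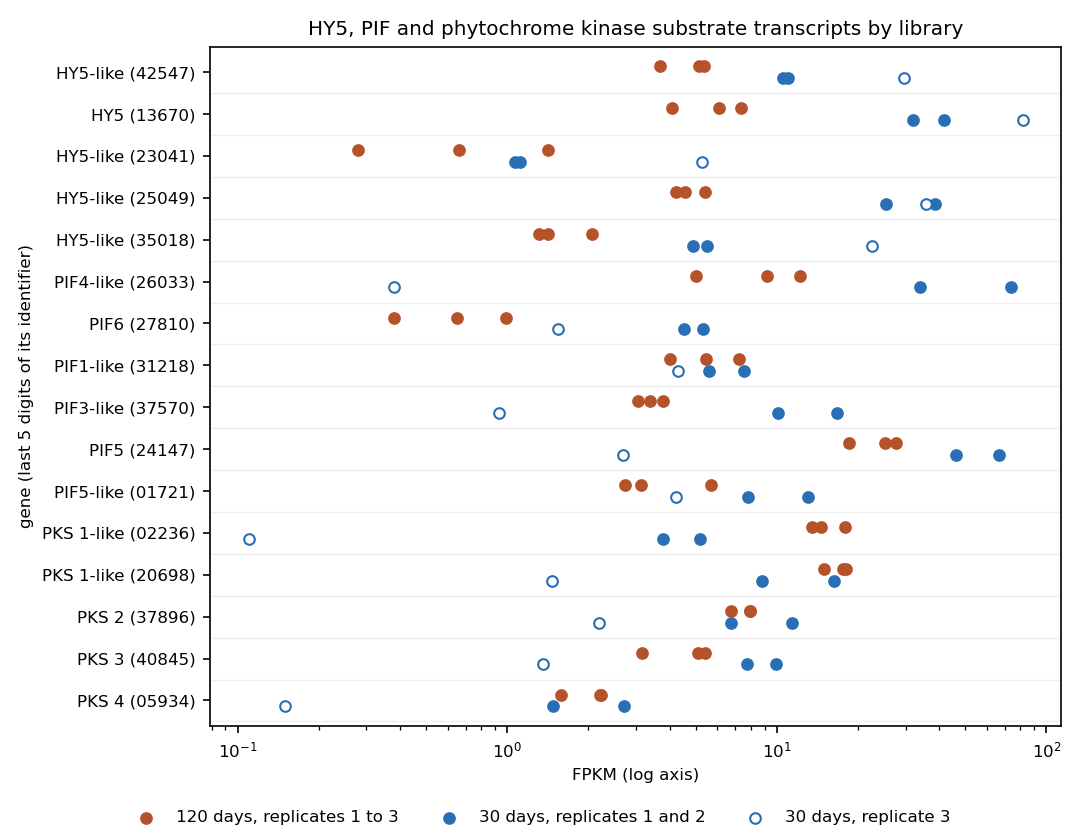
FPKM (log axis) of the tested HY5, PIF and phytochrome kinase substrate (PKS) genes, 1 point per input library, with 120 days in orange, the 30-day replicates 1 and 2 in filled blue and the 30-day replicate 3 as an open circle. The open circle is the rightmost point for HY5 Rsa10013670, at 81.53 FPKM, and the leftmost for PIF4-like Rsa10026033, at 0.38 FPKM, and for all 5 PKS genes.

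FHY1 and FHL carry light-activated phytochrome A into the nucleus, and FHY3 and FAR1, transcription factors related to transposases, switch on FHY1 and FHL in Arabidopsis. Of the 3 FHY1-type genes, FHY1-like Rsa10038894 had 6.78, 5.99 and 8.87 FPKM at 30 days and 1.46, 2.29 and 1.94 at 120 days. Its ages did not overlap, and the fold of -1.50 ± 0.20 (SE) had a limma adjusted p of 0.00374 and was -1.06 after centring (adjusted p 0.0146). FHL (Rsa10007979) fell by 0.71 on the log2 scale (adjusted p 0.0109, limma) and was not called after centring. The other FHY1-like gene, Rsa10020373, lay at 1.04 to 1.56 FPKM in every library.

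The FAR1 family had 13 genes, 12 of them tested. By limma, 9 were lower and 0 higher, against 37.6% and 8.4% of all tested genes. At an unadjusted p under 0.05, 10 were lower and 0 higher, with no share of all genes at that cutoff. FAR1 itself (FAR-RED IMPAIRED RESPONSE 1, Rsa10012046) had 18.14, 17.99 and 27.44 FPKM at 30 days and 7.97, 9.04 and 8.43 at 120 days. The ages lay apart, with the 30-day replicate 3 highest, and the fold was -1.20 (adjusted p 0.00604, limma). FHY3 (Rsa10006052), the most abundant of the family, had 29.77, 32.59 and 33.49 FPKM at 30 days and 16.37, 16.31 and 16.68 at 120 days, a fold of -0.92 (adjusted p 0.00373, limma). FAR1-RELATED SEQUENCE 6 (FRS6, Rsa10027497) had 4.5, 5.19 and 4.12 FPKM at 30 days and 1.45, 1.32 and 1.86 at 120 days, a fold of -1.14 (adjusted p 0.00445, limma). These 3 kept their call after centring, with adjusted p of 0.0376, 0.0473 and 0.036, and the other 6 did not. With centring and without the 30-day replicate 3, FHY3 was no longer called (adjusted p 0.0546, limma).

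Those 6 were FRS1-like (Rsa10006964), FRS2, FRS3-like, FRS4, FRS5 and the putative FRS10, with folds of -1.08, -0.74, -0.76, -0.75, -1.22 and -0.68. The FRS5 gene, Rsa10017702, is listed with a span of only 168 bases and FHY3 with 792, so an FPKM in this family can rest on a short model. FHY3-like Rsa10028025 and FRS12 (Rsa10035902), not called as deposited, were lower without the 30-day replicate 3, at -0.65 and -0.46, with limma adjusted p of 0.0126 and 0.0397. The fold of FRS12 turned to 0.12 after centring. With centring and without the 30-day replicate 3, neither was called, at -0.21 for FHY3-like and -0.02 for FRS12 (adjusted p 0.358 and 0.923, limma).

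**Figure D4:**
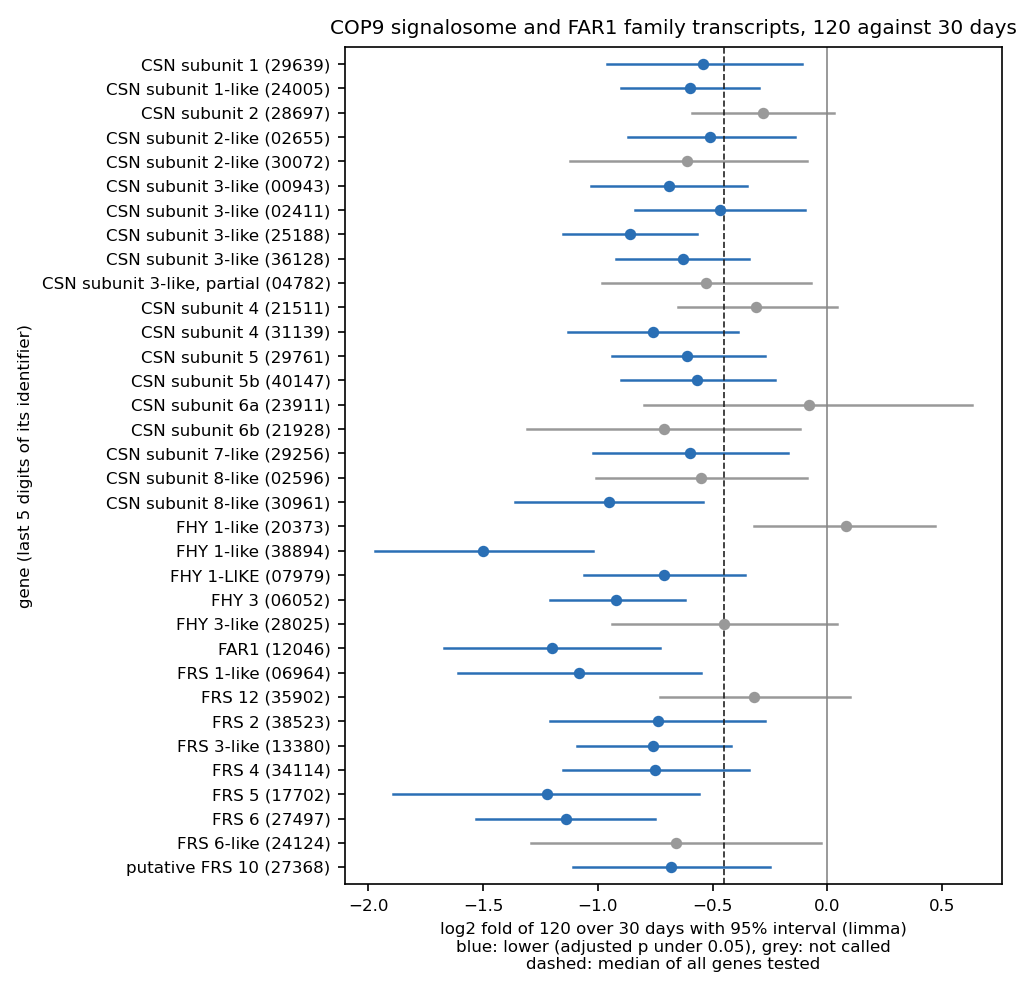
Log2 fold of 120 over 30 days with its 95% confidence interval from limma for the tested COP9 signalosome (CSN), FHY1-type and FAR1 family genes, blue where called lower and grey where not called, with the median of all tested genes dashed at -0.45. Most signalosome intervals include the dashed line, while those of FHY1-like Rsa10038894 (-1.50), FAR1 (-1.20) and FRS6 (-1.14) lie to its left.

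Of the other proteins named after phytochrome, the catalytic phosphatase subunit Rsa10031812 (phytochrome-associated phosphatase 3) fell by 0.74 and its like gene Rsa10042459 by 0.65, with limma adjusted p of 0.011 and 0.0202, and neither was called after centring. The phytochrome A-associated F-box protein (EID1 in Arabidopsis), Rsa10009489, had 35.25, 51.82 and 19.71 FPKM at 30 days and 35.82 to 36.59 at 120 days, a fold of 0.13 with an adjusted p of 0.761 in limma. Its 30-day libraries lay on both sides of the nearly level 120-day libraries.

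Outside the rule, a list of further light pathway genes matched 28 genes, 16 of them tested. It is wider than its name, since it also took genes named FLUORESCENT IN BLUE LIGHT and WEAK CHLOROPLAST MOVEMENT UNDER BLUE LIGHT. By limma 5 of the 16 were lower and 0 higher, against 37.6% and 8.4% of all tested genes. Both counts lay near that background. At an unadjusted p under 0.05, 6 were lower and 0 higher, with no share of all genes at that cutoff. The median log2 fold was -0.34 as deposited and 0.10 after centring. PIL1-like Rsa10009878, a relative of the PIF genes, had 9.05, 7.3 and 24.48 FPKM at 30 days and 1.01, 2.43 and 1.22 at 120 days, a fold of -2.37 (adjusted p 0.00917, limma). Its ages did not overlap. The bHLH factor SPATULA (Rsa10026387) fell by 1.36 and root phototropism protein 3 (Rsa10042020), named after the phototropin partner also called NPH3, by 1.25, with limma adjusted p of 0.00862 and 0.00692. These 3 kept their call after centring. With centring and without the 30-day replicate 3, SPATULA was not called (adjusted p 0.0674, limma). With those changes HFR1 (Rsa10012578), a bHLH factor that restrains PIF activity, was lower, at -2.66 with an adjusted p of 0.0488. As deposited HFR1 was not called, at -1.8 (adjusted p 0.256, limma), and its ages overlapped, with 7.82, 42 and 0.31 FPKM at 30 days. UNE10-like Rsa10025717 was called higher with both changes, at 2.21 (adjusted p 0.00933, limma), and was not called as deposited (1.17, adjusted p 0.147). Adagio protein 2 (Rsa10031336), a blue-light F-box protein, and DET1 (Rsa10004990), a repressor of light-grown development, fell by 0.60 and 0.53, with limma adjusted p of 0.0367 and 0.041, and were not called after centring, nor was DET1 without the 30-day replicate 3 (adjusted p 0.0526). The cullin-4-like gene Rsa10017228, the scaffold of the ligase that COP1 works in, was at -0.76 with an adjusted p of 0.0597 in limma.

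The authors' deposited table holds calls made by another rule than the limma threshold, so the counts are not comparable. In the authors' deposited table, phototropin-1 was not called at a log2 fold of 0.74 and a q of 0.02, while PIF6-like Rsa10029690 was called at -2.26 and a q of 0.09. In the authors' deposited table, 18 of the 89 genes were called lower and 1 higher, against 11.5% and 6.45% of all 30161 genes. Of the 18 lower in the authors' deposited table, 13 were also lower in limma, 1, phytochrome A Rsa10037574, was not called there, and 4 were under the filter. Those 4 were the low copies of phytochrome B (Rsa10042572), PKS1-like (Rsa10007618), PIF6-like (Rsa10029690) and UVR8-like (Rsa10033833). No COP9 signalosome subunit, cryptochrome or phototropin was called in the authors' deposited table. The gene called higher in the authors' deposited table was PKS1-like Rsa10002236, also the one called higher by limma.

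m6A is a methyl mark on adenosines in messenger RNA that plants set mostly toward the 3′ end of transcripts. The authors deposited a list of 5476 differential m6A peaks between the ages, with a log2 fold of 120 over 30 days for each, and the sources used here do not say whether the input libraries entered that fold. In the authors' deposited table of peaks, 22 of the 89 genes carried 1 peak each, and all 22 were higher at 120 days, against 96.8% of all peaks. The share of higher peaks is therefore that of the whole list. All 22 genes with a peak were among the 77 tested for expression. Of all genes tested for expression, 23.3% carried at least 1 listed peak. The median log2 fold of the 22 peaks was 0.51, against 0.50 for the whole list in the authors' deposited table.

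In the authors' deposited table, 10 of the 21 COP9 signalosome genes, 4 of the 13 UVR8-described genes, 2 of the 3 cryptochromes and 2 of the 13 FAR1 family genes carried a peak. A peak was also listed for 1 of the 6 phytochromes, 1 of the 5 HY5 genes, the SPA1-like gene and 1 phosphatase gene. None was listed for the 3 phototropins, 10 PIF, 3 FHY1-type and 6 PKS genes, and no difference between roles was tested. The largest log2 fold in the authors' deposited table was that of FRS12 (Rsa10035902), at 1.79, on a peak of 451 bases in the 5′ UTR (R03, bases 3890571 to 3891021). It was the only one of the 22 annotated to a 5′ UTR. Next were UVR8-like Rsa10024937 at 1.0 and SPA1-like Rsa10039480 at 0.93 in the authors' deposited table. The SPA1-like peak covered the last 151 bases of the gene (R01, bases 896600 to 896750, exonic). The smallest was that of cryptochrome-1-like Rsa10029400, at 0.24 in the authors' deposited table, on a 3′ UTR peak.

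Peaks lay both in genes whose transcripts were called lower and in genes that were not called. HY5-like Rsa10025049 had a peak at 0.74 in the authors' deposited table that spanned 945 bases of its 1003 (R02, bases 12452232 to 12453176), beside a transcript fold of -2.56. HY5 Rsa10013670, with a transcript fold of -2.86, had no listed peak. Phytochrome C had a 3′ UTR peak of 1017 bases (R07, bases 228814 to 229830) at 0.35 in the authors' deposited table, beside a transcript fold of -0.53. The 10 signalosome peaks lay between 0.27, in subunit 2 Rsa10028697, and 0.78, in subunit 3-like Rsa10025188, in the authors' deposited table. The annotated UVR8 receptor Rsa10042050 was at 0.26 and cryptochrome-2 at 0.35 in the authors' deposited table, both with transcripts that were not called.

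By position, 15 of the 22 peaks were annotated exonic, 6 in a 3′ UTR and 1 in a 5′ UTR in the authors' deposited table. Of the 22, 18 reached the 3′ end of the gene as listed, within 1 base (81.8%, against 70% of all listed peaks). The median peak centre lay at 85.8% of the gene's length from its 5′ end, against 86.6% for all peaks. Their median length was 660 bases, against 436 for all peaks. Peak positions are as deposited, and on minus-strand genes a peak start 1 base before the gene start leaves the first base uncertain by 1. The share of tested genes with a listed peak that limma called lower was 56.1%, and in such genes the peak and transcript folds share their ages and plants.

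**Figure D5:**
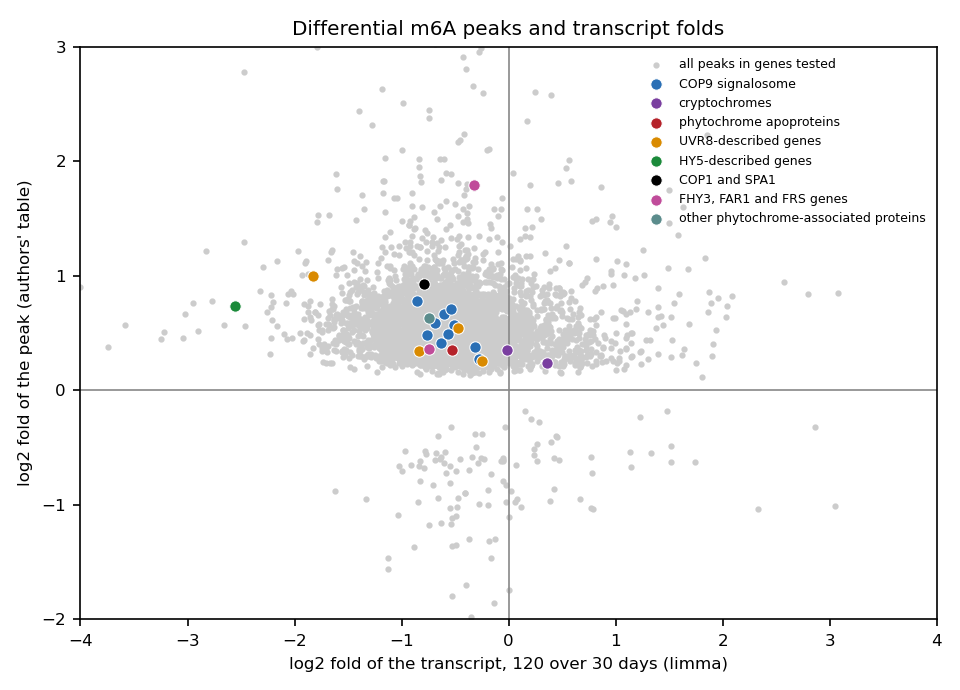
Log2 fold of each differential m6A peak in the authors' deposited table (y) against the limma log2 fold of its transcript (x), 120 over 30 days, with all peaks in tested genes in grey and those of light signalling genes coloured by role. Of the 5263 points, 59 lie outside the axes. All 22 coloured points are above 0 on the y axis, and FRS12, at 1.79, is the highest of them.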

How the data were processed

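Input and m6A libraries were grouped by age from the sample titles. Per the submitters' processing notes, fastp, FastQC, HISAT2, StringTie, HOMER and edgeR were used; versions, genome build, annotation, peak caller and read sharing between gene copies are not given in the sources used here. The authors deposited FPKM with 2 decimals for the 6 input libraries, with their log2 fold, p-value and q-value per gene, per the file headers. The authors' deposited peak list has a log2 fold, a p-value and an FDR per peak; no value per m6A library was used here. FPKM summed to 636794.71 to 694435.97 per input library, and the read depth is unknown, so no counting interval is given. Near-identical copies may share reads, which makes values of single copies uncertain, and strand handling is not given.

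The test was limma (version 3.58.1, R 4.3.3, eBayes with trend, 2-sided) on log2(FPKM + 1), which understates folds of low genes, for genes that reached an FPKM of 1 in at least 3 input libraries, with Benjamini-Hochberg adjustment over 21435 genes. The code was tested on simulated data. Exact tests of 3 against 3 libraries were not used. Alternatives were median centring, quantile normalization, a pseudocount of 0.1, no filter, an FPKM of at least 5, a replicate block, each library left out and, chosen after seeing the data, centring together with leaving out the 30-day replicate 3.

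The genes, roles and lists were chosen with earlier results of these data known. Values are given for all tested receptors, COP1, SPA, HY5 and PIF genes, the 6 smallest p of the COP9 signalosome and of the FAR1-RELATED or FAR-RED genes, genes with a listed peak, other called genes, and the 6 smallest p of the further pathway list. Other genes named in the text were added after their values were seen. Of the marker lists, phloem companion cells (3 genes) summed to 85.45 to 241.59 FPKM at 30 days and 48.17 to 75.23 at 120 days, guard cells (3 genes) to 7.05 to 57.85 and 16.66 to 21.61, and no root endodermis marker matched.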

Additional observations from a re-analysis of the deposited data

How the results depend on the processing

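The scale of the libraries moved the counts most. Genes called lower fell from 39 to 10 with median centring, 12 with quantile normalization and 15 with centring without the 30-day replicate 3, chosen after seeing the data; genes called higher went from 1 to 4, 3 and 4, and to 0 with a pseudocount of 0.1. Leaving out 1 library gave 20 to 48 lower and 0 to 3 higher: 21 lower without the 120-day replicate 2, 20 without the 120-day replicate 3 and 48 without the 30-day replicate 3. Of the further pathway genes, 3 (not the same 3 in each case) were lower with centring, with quantile normalization, with the replicate block and with both changes together, and 3 to 6 when 1 library was left out; 1 was higher with centring, 2 with no filter, 2 with both changes and 0 to 1 when 1 library was left out. At an absolute peak log2 fold of at least 2, 0 of the 22 peaks remained, and at an FDR of at most 0.01, 20 did.

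The sample titles do not say whether replicate numbers pair the samples, and the main fit used no pairing. The deviations of same-numbered libraries from their group means correlated at 0.272, 0.142 and 0.0814. Those of differently numbered libraries correlated at -0.195 to 0.0311, so a pairing was neither shown nor excluded. The replicate block gave 37 lower and 1 higher of the 77 genes.

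Where the fold of a named gene turned sign, it was not called there, except PIF5 without the 30-day replicate 3. With centring, quantile normalization and both changes together, respectively, they were 0.13, 0.11 and 0.18 for Rsa10021511, 0.32, 0.24 and 0.35 for Rsa10025063, 0.27, 0.24 and 0.33 for Rsa10028588, 0.16, 0.13 and 0.17 for Rsa10028697, and 0.38, 0.36 and 0.21 for Rsa10031218. In the same order they were 0.28, 0.17 and 0.47 for Rsa10032760, 0.17, 0.09 and 0.29 for Rsa10038561, 0.43, 0.34 and 0.33 for Rsa10041457, and 0.19, 0.05 and 0.17 for Rsa10042050. With the first 2 alone they were 0.27 and 0.12 for Rsa10017354 and 0.12 and 0.08 for Rsa10035902. With both changes together, and with neither scaling alone, they were 0.09 for Rsa10003205, 0.16 for Rsa10023041, 0.02 for Rsa10028203 and -0.77 for Rsa10024147. Leaving out each library in turn gave -0.11 to 0.94 for Rsa10014699, -0.57 to 0.12 for Rsa10017354, -2.45 to 0.43 for Rsa10026033, -0.35 to 0.04 for Rsa10028588, -0.24 to 0.12 for Rsa10031218, -0.39 to 0.03 for Rsa10032760 and -0.11 to 0.04 for Rsa10041457. Rsa10029639, Rsa10004990 and Rsa10031336 were called lower as deposited and were at 0.04, 0.04 and 0.01 with both changes together. PIF5 Rsa10024147 was at 0.10 as deposited, at -0.01 without the 120-day replicate 2 and at -1.21 (called, without the 30-day replicate 3) to 0.89 when each library was left out. The cause of these changes was not tested. Depth is unknown, so low genes limit what could be called.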
